A study of Mus musculus with 16 samples.

Results

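The Notch pathway and HES/HEY genes examined here are 9 mouse genes, namely the receptors Notch1, Notch2 and Notch3, the ligands Dll1 and Jag1, and the transcriptional repressors Hes1, Hes6, Hey1 and Heyl. For each gene, every ATAC-seq peak with its summit in the gene body or the 50 kb on either side (GENCODE M21, mm10) was taken. The members are 9 of 21755 protein-coding gene windows. They held 46 of 26213 accessible regions when equal-length lists of the strongest peaks were compared, and 118 of 80287 regions when all deposited peaks were used.

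Notch receptors are single-pass membrane proteins that are cut at successive sites after they bind a Delta or Jagged ligand on a neighbouring cell, first by an ADAM protease and then by γ-secretase. The freed intracellular part enters the nucleus, joins the DNA-binding protein RBPJ and a Mastermind coactivator, and switches on genes such as Hes1, Hey1 and Heyl, whose products repress transcription. In muscle, Notch signalling is known for keeping satellite cells and myoblasts undifferentiated and for opposing MyoD1, the factor that drives the muscle programme. Hes6 is the exception in the family: it is known to antagonise Hes1 and to be expressed in differentiating muscle.

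ATAC-seq marks open DNA by letting a transposase insert adapters into it. It was applied to C2C12iMyoD1, a polyclonal line of mouse C2C12 myoblasts in which doxycycline drives a tagged MyoD1 from an integrated TRE3G transgene while the endogenous Myod1 gene stays in place. All cells carried the transgene. The paper, however, reports detectable tagged MyoD1 in only a minority of this line's nuclei after 24 h of doxycycline in differentiation. DM +dox libraries therefore mix cells with and without it. The treatments gave 4 groups of 4 libraries: growth medium with vehicle (GM no dox), growth medium with doxycycline (GM +dox), serum starvation with vehicle (DM no dox) and serum starvation with doxycycline (DM +dox). Drug, vehicle and serum starvation all lasted 24 h. Seeding was at 75000 cells per well for GM and 300000 for DM, so medium and cell density cannot be told apart. Replicate 1 of both DM groups was excluded by the study as a quality outlier, and the comparisons rest on 14 libraries.

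The kept lists held between 14710 and 58587 peaks, with an estimated background of 0.339 to 1.13 fragments per base. The DM no dox lists (23690 to 40599 peaks) were all shorter than the DM +dox lists (46241 to 51340 peaks). The start site of Myod1, which defines the myoblast, held a peak in 14 of 14 libraries. Of the other 4 myoblast markers, Cdh15 had one in 3 libraries and Des, Itga7 and Myf5 had none among the strongest peaks, and among all deposited peaks these 3 had one in 13, 4 and 6 libraries. The start sites of Ptprc, Pecam1, Epcam and Alb, which mark leukocytes, endothelium, epithelium and hepatocytes, held none among the strongest peaks, and Pecam1 alone held any among all deposited peaks, in 8 libraries. Peak lists hold only what passed the authors' threshold, so the absence of a peak does not show closed chromatin.

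The stretches of sequence that carry the results are printed first. Capitals mark 3 short motifs searched on both strands: the MyoD1 E-box CAGCTG, the RBPJ core TGGGAA and the AP-1 consensus TGANTCA. They do not overlap in these stretches. All are from the plus strand of GRCm38, the assembly behind mm10. The first 5 are the 200 bases around the summit of the leading differing region in 5 windows, and the last is the 150 bases before the protein-coding start site of Hes1.
Notch3 intron region, chr17:32161231-32161430: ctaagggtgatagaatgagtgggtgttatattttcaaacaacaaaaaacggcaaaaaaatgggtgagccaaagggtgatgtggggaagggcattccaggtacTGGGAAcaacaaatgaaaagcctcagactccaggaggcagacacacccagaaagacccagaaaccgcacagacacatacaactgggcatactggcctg
Notch1 upstream region, chr2:26531883-26532082: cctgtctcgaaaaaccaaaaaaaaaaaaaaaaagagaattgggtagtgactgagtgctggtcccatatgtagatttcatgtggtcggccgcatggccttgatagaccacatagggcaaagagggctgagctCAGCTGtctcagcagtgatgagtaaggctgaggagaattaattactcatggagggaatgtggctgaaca
Notch2 intron region, chr3:98063485-98063684: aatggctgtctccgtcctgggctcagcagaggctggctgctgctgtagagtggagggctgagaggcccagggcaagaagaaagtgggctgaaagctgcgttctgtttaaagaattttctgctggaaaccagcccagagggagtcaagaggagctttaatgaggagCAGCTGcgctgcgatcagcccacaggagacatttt
Hes1 distal region, chr16:30024817-30025016: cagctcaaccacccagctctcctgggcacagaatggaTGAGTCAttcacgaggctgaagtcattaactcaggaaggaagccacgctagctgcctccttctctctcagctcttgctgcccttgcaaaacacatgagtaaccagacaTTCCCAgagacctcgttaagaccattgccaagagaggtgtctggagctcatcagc
Per2 start-site region in the Hes6 window, chr1:91459345-91459544: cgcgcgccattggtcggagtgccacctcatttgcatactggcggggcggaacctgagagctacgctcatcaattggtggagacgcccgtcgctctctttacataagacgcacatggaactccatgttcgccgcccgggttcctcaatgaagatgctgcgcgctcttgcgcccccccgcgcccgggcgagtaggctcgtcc
Hes1 proximal stretch, chr16:30065190-30065339: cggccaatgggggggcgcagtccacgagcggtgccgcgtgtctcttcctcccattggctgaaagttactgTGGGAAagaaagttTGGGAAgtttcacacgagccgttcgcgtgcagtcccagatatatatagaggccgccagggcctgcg

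The Hes1 stretch holds 2 RBPJ cores in the same orientation, which begin 80 and 66 bases before the start site. They start at chr16:30065260 and chr16:30065274, just past the summit of the Hes1 start-site region at chr16:30065252. Among the 5 stretches printed around a summit, only that of Notch3 has an RBPJ core next to it, 2 bases after the summit. The Notch1 and Notch2 regions each hold 1 MyoD1 E-box, at 31 and 65 bases past the summit. Over all 46 member regions, 13 (28.3%) held an RBPJ core within 100 bases of the summit, against 18.3% of all 26213 regions. The E-box was found in 10 (21.7%, against 18.7%) and the AP-1 consensus in 15 (32.6%, against 33.9%). These shares describe letters, not binding.

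Most member regions lay away from start sites and were not shared by all libraries. Of the 46 regions, 23 had an intergenic summit, 16 an intronic one and 7 one in an exon or UTR, and 13 (28.3%) lay within 1 kb of the start of a protein-coding transcript, against 34.4% of all regions. In 10 of the 46 the nearest start site was that of another gene. A peak in all 14 libraries was found for 8 member regions (17.4%, against 23.1% of all regions), and a peak in just 1 library for 8 (17.4%, against 16.8%). The 8 constant regions included 3 at the start sites of neighbours: Inpp5e and Sec16a beside Notch1, and Fam120b beside Dll1. The other 5 were the Hes6 start site, a Notch2 intron, a region upstream of Notch3, one past the 3' end of Notch3, 75.0 kb downstream of its outermost start, and one 40.4 kb upstream of Hes1. Unless the outermost start is named, distances are to the member's nearest protein-coding start.

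**Figure D1:**
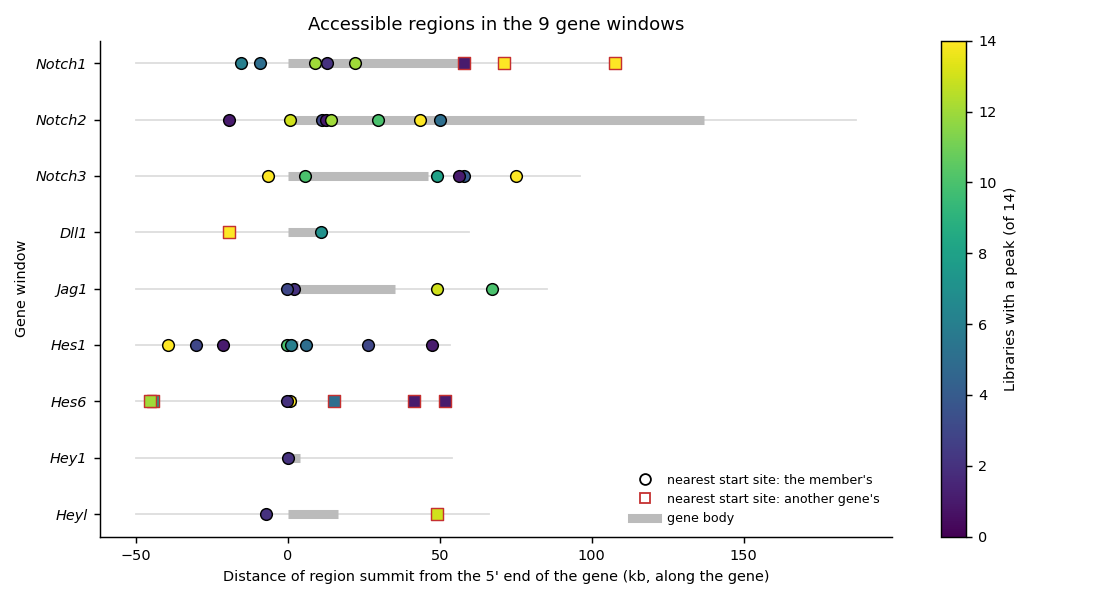
Position of each of the 46 regions along its gene, in kb from the outermost 5' end of the gene, with the number of the 14 libraries that had a peak as colour. Circles have the member's own start site as the nearest one, and the 10 squares another gene's.

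The start sites of the members differed widely. Hes6 had a peak summit within 1 kb of its start in 14 of 14 libraries, and it was among the strong ones everywhere. Strength is given as a rank percentile, in which 100 is the strongest peak of a library's list and 0 means no peak in it. At the Hes6 start the percentile was 94.7, 74.8, 78.9 and 93.9 in GM no dox, 88.0, 74.1, 93.9 and 86.9 in GM +dox, 73.3, 80.9 and 84.4 in DM no dox, and 86.5, 81.4 and 80.2 in DM +dox. The 4 groups overlapped, with means of 85.6 ± 10.2 (SD, n = 4), 85.7 ± 8.32 (n = 4), 79.5 ± 5.65 (n = 3) and 82.7 ± 3.32 (n = 3).

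The Notch2 start site was open but weaker, with a peak in 13 of 14 libraries. Its group means were 29.02 ± 12.4 (SD, n = 4) in GM no dox, 23.6 ± 11.5 (n = 4) in GM +dox, 32.9 ± 14.2 (n = 3) in DM no dox and 17.2 ± 21.6 (n = 3) in DM +dox, and they overlapped. Hes1 had a peak at its protein-coding start, over the stretch with the paired RBPJ cores, in 6 libraries, with percentiles between 1.74 and 33.3. A second Hes1 region, 1.18 kb upstream, reaches the start of a transcript that does not code for protein and had a peak in 10 libraries, with percentiles up to 29.01.

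At the remaining start sites the strongest lists held few peaks. Jag1 had one in 3 libraries, at 19.6 and 1.09 in DM no dox and 20.3 in DM +dox. Hey1, which held a single region in its whole window, had its peak in 2 libraries, at 37.9 in DM no dox replicate 2 and 9.20 in DM +dox replicate 3. At Notch1 it was 2 libraries, and at Notch3, Dll1 and Heyl none. Among all deposited peaks these start sites were found far more often, in 13 libraries for Jag1 and Hey1, 12 for Hes1, 11 for Notch1, 9 for Dll1, 5 for Heyl and 2 for Notch3. A further region 1.03 kb upstream of the nearest Hes6 protein-coding start, with a MyoD1 E-box near its summit, had a peak in 2 libraries of the equal-length lists, both DM +dox, at 28.2 and 40.1.

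The rest of the pathway, a list of 30 further genes, showed the same range. Start sites with a peak in all 14 libraries numbered 7: Rbpj and Maml1 of the nuclear complex, the proteases Adam10 and Adam17, the γ-secretase genes Ncstn and Aph1a, and the Notch inhibitor Numb. Another 14 had one in some libraries, among them Hey2 (13 libraries), the fucosyltransferase Pofut1 (12) and the glycosyltransferase Lfng (8). There was none at 9, and at 4 of these (Notch4, Dlk1, Hes5 and Hes7) none among all deposited peaks either.

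**Figure D2:**
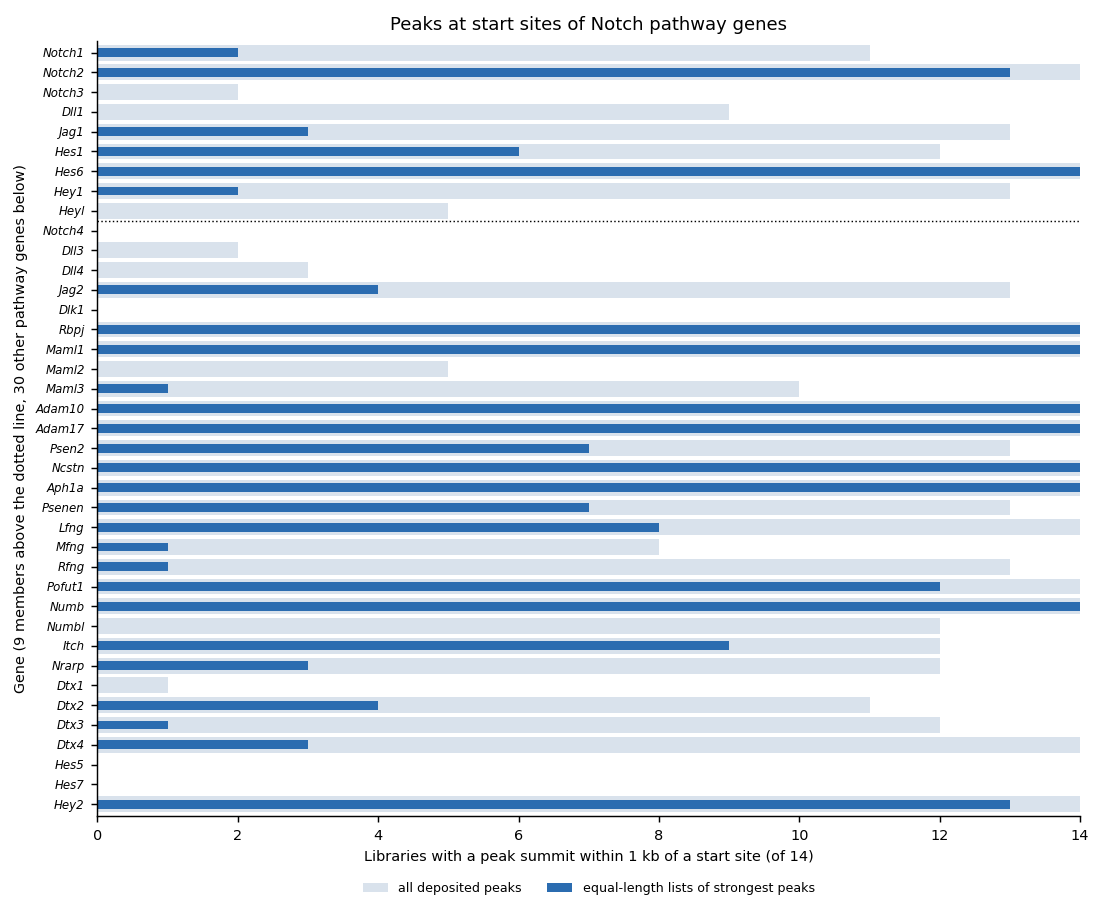
Number of the 14 libraries with a peak summit within 1 kb of a start site, for the 9 members and 30 other pathway genes, in the equal-length lists (dark bars) and in all deposited peaks (light bars). Hes6 reaches 14 in both, whereas Notch3, Dll1 and Heyl are at 0 in the equal-length lists.

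Within the equal-length lists of 14710 peaks, the 9 windows held a mean of 24.5 ± 2.38 peaks (SD, n = 4) in GM no dox libraries, 23.3 ± 1.71 (n = 4) in GM +dox, 23.7 ± 0.577 in DM no dox (n = 3) and 23.0 ± 2.65 in DM +dox (n = 3). The 14 totals lay between 20 and 27, and the groups overlapped in each of the 4 comparisons. The median member window held 3.07 peaks per library, against 1.36 for all protein-coding windows, at a similar median width (116 and 117 kb).

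Counts of single genes varied from library to library within groups. Notch1 counted 6, 5, 4 and 6 peaks in GM no dox, 6, 4, 5 and 3 in GM +dox, 5, 4 and 5 in DM no dox, and 3, 5 and 5 in DM +dox. Notch2 counted 3, 5, 5 and 4, then 4, 4, 3 and 5, then 5, 4 and 4, and finally 7, 4 and 4 in the same order of groups. Hes1 had 5, 3, 4 and 2 peaks, 3, 3, 3 and 4, 2, 4 and 3, and 3, 1 and 3. Dll1 held 1 or 2 peaks in each library, Heyl 0 to 2, and Hey1 none in 12 libraries.

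In lists of equal length, Notch3 had the largest difference between GM and DM means. Its window counted 6, 5, 4 and 3 peaks in GM no dox and 4, 3 and 3 in DM no dox, and 4, 5, 3 and 4 in GM +dox and 3, 2 and 3 in DM +dox. DM minus GM came to -1.17 without dox (p = 0.371) and -1.33 with dox (p = 0.114, two-sided exact permutation tests of libraries). With all deposited peaks the difference with dox turned to 1.33, and the Notch3 means without dox were 6.33 in DM and 6.5 in GM. Jag1 had a mean of 1.75 ± 0.5 (SD, n = 4) in GM no dox and 2.67 ± 0.577 (n = 3) in DM no dox (exact permutation, p = 0.114). With dox, Hes6 had 2.75 ± 0.5 peaks (n = 4) in GM and 3.67 ± 0.577 (n = 3) in DM (exact permutation, p = 0.114). Both turned around under another setting, Jag1 to -0.333 with the strongest 7355 peaks and Hes6 to -0.0833 when peaks were ranked by fold enrichment. The adjusted p was 1 for every member in every comparison (Benjamini-Hochberg over 21755 windows), so no member window passed the test. Of the member windows, 0 had an unadjusted p under 0.05. These group sizes left little that could pass, as the smallest exact permutation p was 0.0286, and 0.1 for dox in DM. An adjusted p under 0.05 would need most windows at that smallest p, and for dox in DM neither p could fall under 0.05.

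None of the 9 windows had groups that did not overlap in any of the comparisons. Over all protein-coding windows, dox separated the groups upwards in 0.165% and downwards in 0.156% in GM, and in 1.33% and 0.708% in DM. Differentiation did so in 1.1% and 1.06% of windows in vehicle-treated cells and in 1.37% and 1.02% in dox-treated cells. Of the 30 other pathway windows, 4 separated for dox in DM: the Mastermind gene Maml3 and the Numb relative Numbl were higher, and Maml2 and the repressor gene Hes7 were lower (exact permutation p = 0.1 each, the smallest that 3 against 3 allows). Aph1a was lower in differentiation with dox (exact permutation p = 0.0286).

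Using all deposited peaks, longer lists had more peaks in the windows. The windows then held 27 to 71 peaks in GM no dox, 59 to 93 in GM +dox, 31 to 66 in DM no dox and 73 to 79 in DM +dox. Notch1 ranged from 5 peaks in DM no dox replicates 2 and 3 to 17 in GM +dox replicate 1, and Heyl from 0 in GM no dox replicate 1 to 10 in GM +dox replicate 1. Per 10000 deposited peaks the totals were between 13.1 and 18.4 in every library.

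**Figure D3:**
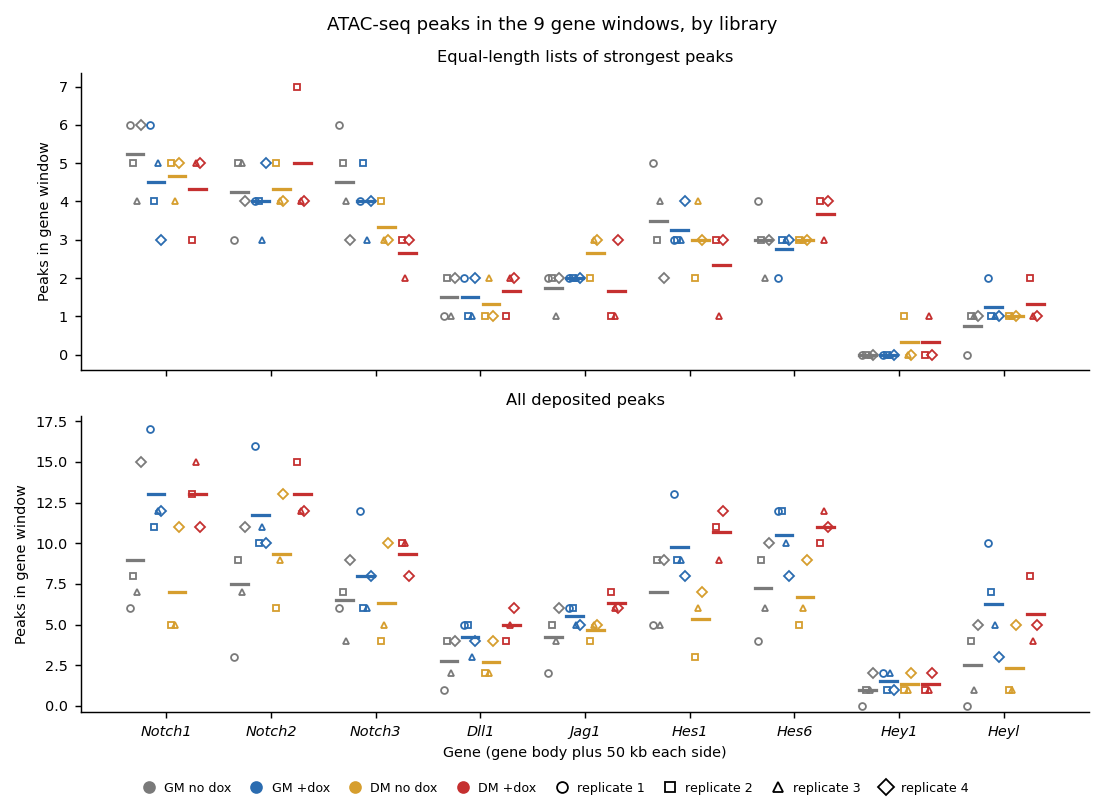
Peaks per gene window in each library, for lists cut to the same length (top) and for all deposited peaks (bottom), with one symbol per replicate number and a bar at the group mean. In the top panel the groups overlap for every gene, whereas in the bottom panel the +dox mean lies above the no dox mean in both media for every gene but Hey1.

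The regions below were picked because groups did not overlap in rank, so the exact permutation p of that difference restates the choice. Among single regions, the largest difference was at Notch3, where an intron region was lower in differentiating cells. This region (chr17:32160936-32161737) lies 5.52 kb downstream of the Notch3 start. Its rank percentile was 80.6, 84.1, 58.6 and 45.3 in GM no dox, and 32.6, 0 and 0 in DM no dox. With dox it was 59.9, 83.99, 22.2 and 28.99 in GM, and 4.18, 0 and 0 in DM. Every GM library therefore held a peak there, and every DM library of the same treatment ranked below all of them. Means were 67.2 ± 18.4 (SD, n = 4) in GM and 10.9 ± 18.8 (n = 3) in DM without dox (exact permutation p = 0.0286, the smallest that 4 against 3 allows). With dox they were 48.8 ± 28.7 (n = 4) and 1.39 ± 2.41 (n = 3, exact permutation p = 0.0571). Adjusted over all regions, p was 0.593 and 0.639, so neither passed. In limma with the replicate number as a block, a fit chosen after seeing the data, the difference was -52.2 without dox (adjusted p = 0.0260) and -43.3 with dox (adjusted p = 0.0647). With the strongest 7355 peaks the exact permutation comparison gave -36.6 and -22.0.

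The same region still had a peak in 14 of 14 libraries when all deposited peaks were used. The authors' fold enrichment over local background was 7.41, 18.4, 8.31 and 12.5 in GM no dox against 8.67, 5.94 and 7.53 in DM no dox, and 13.95, 18.5, 10.7 and 10.03 in GM +dox against 14.5, 6.82 and 6.70 in DM +dox. On this scale the GM and DM libraries overlapped. Libraries with the numbers 1 and 2 ranked above those with 3 and 4 in both GM groups. What this has to do with the difference from DM was not tested. Within the numbers 1 and 2, which hold 1 library of each DM group, the difference in percentile was -49.8 without dox and -67.8 with dox, and within 3 and 4 it was -52.0 and -25.6.

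A second Notch3 region, 6.498 kb upstream of the start (chr17:32173035-32173677), was lower in DM no dox than in any other group. It had 91.5, 72.4, 69.4 and 64.2 in GM no dox, 64.2, 77.7, 64.2 and 71.9 in GM +dox, 35.8, 39.9 and 41.8 in DM no dox, and 81.6, 50.9 and 64.2 in DM +dox. DM no dox did not overlap with either GM no dox or DM +dox. The DM no dox mean was 39.2 ± 3.07 (SD, n = 3), against 74.4 ± 11.9 (n = 4) in GM no dox (exact permutation p = 0.0286, adjusted p = 0.593). In DM +dox it was 65.6 ± 15.4 (n = 3), which is 26.4 percentiles above DM no dox (exact permutation p = 0.1, adjusted p = 1). For the interaction of dox and medium, exact permutation of GM and DM labels in each dox arm gave p = 0.0678 (adjusted p = 1). This region holds a MyoD1 E-box within 100 bases of its summit.

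At Notch1, a region 15.3 kb upstream of the outermost start (chr2:26531861-26532210), whose sequence with its E-box is printed above, was all-or-none for dox in DM. Its percentile was 32.9, 50.9 and 18.2 in DM no dox and 0 in each of the 3 DM +dox libraries. In GM no dox it was 0, 17.1, 0 and 0, and in GM +dox 6.17, 0, 22.4 and 0. For dox in DM the exact permutation p was 0.1 (adjusted p = 1). DM no dox was 29.7 percentiles above GM no dox (exact permutation p = 0.0571, adjusted p = 0.720). The interaction, -36.8 percentiles, had the smallest p of any member (exact permutation p = 0.0122, adjusted p = 1). Both differences were sensitive to the lists. With the strongest 7355 peaks they shrank to 0.607 for DM no dox against GM no dox and -0.607 for dox in DM, which was -8.07 with all deposited peaks and -9.54 with all 16 libraries. All 3 DM +dox libraries did have a peak there among all deposited peaks, with a fold enrichment of 8.64, 11.7 and 10.7, against 8.71, 9.77 and 11.5 in DM no dox.

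The Notch2 intron region 50.05 kb downstream of the start (chr3:98063163-98063870) showed the reverse. Its percentile was 56.9, 20.8 and 1.39 in DM +dox and 0 in all 3 DM no dox libraries, and single GM libraries reached 8.20 and 8.32. The last DM +dox value is close to the bottom of the list, and the mean difference of 26.4 was 11.1 without DM +dox replicate 2. For this all-or-none difference the exact permutation p was 0.1 (adjusted p = 1), and for the interaction it was 0.0327 (adjusted p = 1). Among all deposited peaks the fold enrichment was 20.3, 14.6 and 11.7 in DM +dox, and 6.78 and 9.66 in the 2 DM no dox libraries with a peak. A second Notch2 intron region, 43.6 kb downstream (chr3:98056292-98057467), had a peak in all 14 libraries. With dox it was lower in DM (67.1, 57.1 and 24.6) than in GM (81.8, 86.1, 75.02 and 68.5), exact permutation p = 0.0286, adjusted p = 0.556. The difference, -28.3 percentiles, was -15.8 without DM +dox replicate 4 and -7.73 with all deposited peaks.

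The Hes1 distal region (chr16:30024715-30025201), 40.4 kb upstream and printed above with its AP-1 and RBPJ letters, was open in every library. Without dox it was lower in DM (66.7, 58.4 and 67.1) than in GM (76.9, 87.5, 82.6 and 67.7), by 14.6 percentiles (exact permutation p = 0.0571, adjusted p = 0.720). With dox the values were 90.6, 85.9, 81.1 and 75.0 in GM and 84.2, 54.0 and 66.4 in DM, and the groups overlapped.

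Finally, 2 of the separated regions belong to neighbours by position. The Sec16a start-site region in the Notch1 window (chr2:26444929-26446384) was higher in DM no dox (77.4, 62.9 and 82.1) than in GM no dox (30.7, 58.9, 31.1 and 38.04), exact permutation p = 0.0571, adjusted p = 0.720. The Per2 start-site region in the Hes6 window (chr1:91459045-91459801) was higher with dox in DM (78.0, 76.1 and 75.8) than without (56.4, 69.6 and 67.8), exact permutation p = 0.1, adjusted p = 1. Sec16a takes part in export from the endoplasmic reticulum, and Per2 is a clock gene.

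**Figure D4:**
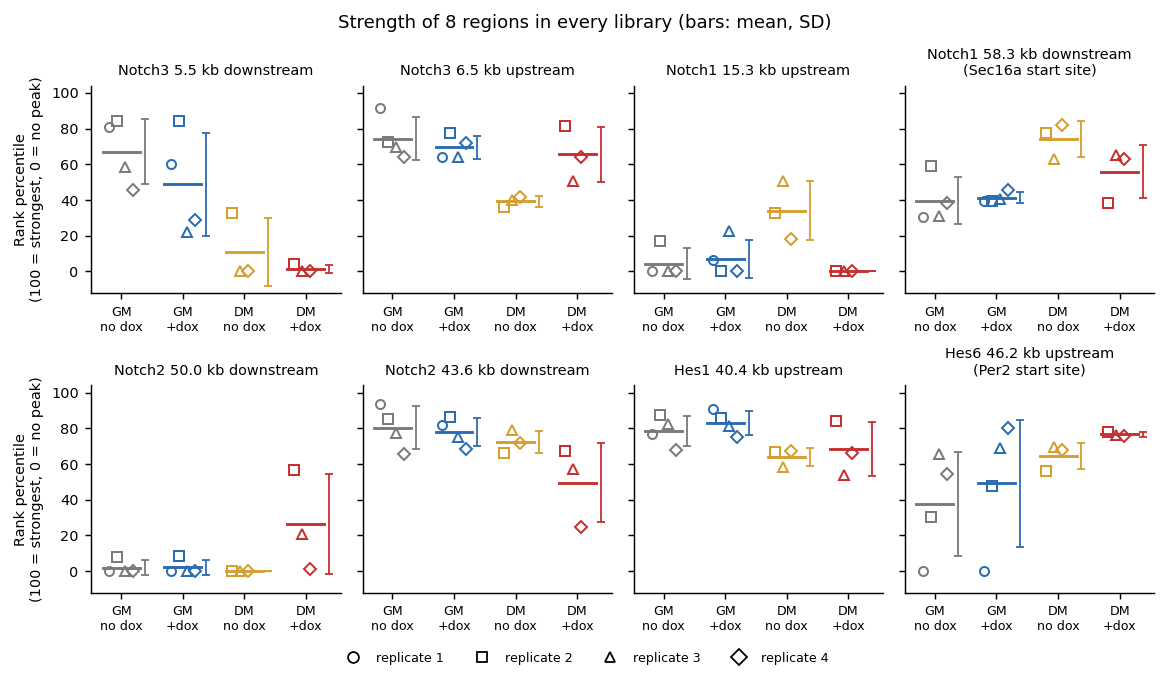
Rank percentile of the 8 named regions in each library (symbols by replicate number), with the group mean (horizontal bar) and SD (error bar), titled by distance from the member's nearest protein-coding start, where 0 is no peak in the equal-length list. The Notch3 intron region is at or near 0 in 5 of the 6 DM libraries, and the Notch1 upstream region is at 0 in all 3 DM +dox libraries.

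Counted over all members, separation was sparse in each comparison and is read here against all regions of the genome. For dox in GM, 0 of 38 member regions were all-or-none (0.163% higher and 0.124% lower over all regions) and 0 of 38 had ranks that did not overlap (1.01% and 0.916%). For dox in DM, 1 of 40 was all-or-none higher and 1 of 40 lower (2.5% each, against 0.824% and 0.787%), and 3 were higher and 1 lower without overlap (7.5% and 2.5%, against 4.44% and 4.22%). Differentiation without dox gave no all-or-none member among 43 (0.984% and 1.04% over all regions), 2 higher and 3 lower without overlap (4.65% and 6.98%, against 4.29% and 3.96%). Differentiation with dox gave no all-or-none member among 38 (1.11% and 1.1% over all regions), 0 higher and 2 lower without overlap (0% and 5.26%, against 5.12% and 4.18%). With 0 to 3 members behind each share, none of these is read as a result about the members.

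The median difference in percentile over the members was -3.66 for differentiation with dox and -1.28 without it, and for dox itself it was -2.0 in GM and -1.39 in DM. Over all regions tested the same medians were 0.57, -0.01, -0.20 and 0.18. The 4 comparisons share libraries, so these medians are not independent of each other. The exact test called no region of the genome in any comparison. Its smallest possible p left this outcome nearly fixed in advance, and for dox in DM fully so. At an unadjusted p under 0.05, the exact permutation test had 2 of 43 members without dox (both Notch3 regions) and 1 of 38 with dox (the second Notch2 intron region) when DM was set against GM, against 4.81% and 5.14% of all regions. For dox it had 0 of 38 in GM (1.93% of all regions) and 0 of 40 in DM, where the smallest p is 0.1 (0.0% of all regions). By limma on the same percentiles, 0 of 33 members were called at an adjusted p under 0.05 in any comparison, although this model called 0.757% of all regions when GM and DM were compared in vehicle-treated cells and 0.767% in dox-treated cells. For dox it called 0.00508% in GM and 0.0203% in DM. With the replicate block, limma called 1 of the 33, the Notch3 intron region without dox, and 2.64% of all regions in that comparison. In the others it called no member, against 2.87% of all regions for DM and GM in dox-treated cells, and 0.498% in DM and 0.00508% in GM for dox.

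In all deposited peaks, 7 of 101 member regions (6.93%) were all-or-none higher with dox in DM and 0 lower, against 5.37% and 0.0142% of all regions. Of these, 3 lay in the Notch1 window and 1 each in those of Notch3, Jag1, Hes1 and Hes6. The DM +dox lists were all longer than the DM no dox lists. Of the 7, only the Notch1 regions chr2:26458283-26458815 and chr2:26525609-26526078 had a peak in the equal-length lists. Neither was all-or-none for dox in DM there, and the others could not be compared. The part of list length in this count was not tested. For dox in GM no member was all-or-none (0.446% and 0.0% over all regions), nor for differentiation without dox (0.205% in each direction). For differentiation with dox 1 of 112 was higher and none lower (1.49% and 0.319% over all regions). That region lies 35.7 kb upstream of Hes1 (chr16:30029520-30029822), and it had a peak in the 3 DM +dox libraries and in no other.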

How the data were processed

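ATAC-seq peak lists of 16 libraries of C2C12iMyoD1 cells were analysed. The authors aligned the reads and called narrow peaks per library with the nf-core/atacseq pipeline (mm10, blacklisted regions removed), and the submitters' processing notes name MACS2 and deepTools. The deposited columns are a score, a fold enrichment over local background (a ratio), and −log10 p and q values. The lowest deposited −log10 q was 1.30. No read counts were used, and depth was estimated by solving fold and p for the background at each peak.

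Ranked by −log10 p, the top 14710 peaks of each list were kept, as many as the shortest of the 14 lists held, and overlapping or abutting peaks of 14 libraries were merged. Group means of peaks per window and of rank percentiles were compared by two-sided exact permutation of libraries, with Benjamini-Hochberg adjustment over all windows or all regions with a peak. The smallest possible p was 0.0286 for dox in GM and for both differentiation comparisons and 0.1 for dox in DM. A permutation p over these libraries measures only the spread between these samples. Tests were checked on simulated data. For the exact test the planted changes exceeded the whole range of percentiles, so that check covers the computation and not the power. Python 3.11.15, numpy 2.4.6, scipy 1.17.1, R 4.3.3 and limma 3.58.1 (trend and robust options, regions with a peak in at least 3 libraries) were used.

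Named regions are those at the members' start sites and those whose groups did not overlap. For the latter, the exact permutation p of that difference restates the choice. Groups that do not overlap give the smallest possible p or one close to it. The members and gene lists were chosen with earlier results of these data known. Same-numbered libraries deviated together from their group means in 3 of the 4 comparisons (correlations of 0.148 to 0.525 over regions). For differentiation without dox the correlations were 0.0618 to 0.399. Alternatives covered list length, ranking, window size, peaks nearest to the member, all 16 libraries, single libraries left out, a replicate block (in limma too, chosen after seeing the data), and libraries numbered 1 and 2 or 3 and 4 alone. No count model was fitted. A few genes of the lists are not reported here.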

Additional observations from a re-analysis of the deposited data

Results flagged for a closer look

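In 53 groups of 4 GM libraries with some spread, 11 had a highest or lowest value set far apart from the other 3 by Dixon's criterion. Of these 11, 5 were counts of 0 to 4 peaks. The criterion is meant for continuous values and always flags 1 value apart from 3 equal ones, as with tied counts or percentiles of 0. The number flagged is therefore not set against a rate expected by chance. In GM no dox the lowest Jag1 count was 1 (others 2) and the lowest Heyl count 0 (others 1). In GM +dox the highest Hes1 count was 4 (others 3), the lowest Hes6 count 2 (others 3) and the highest Heyl count 2 (others 1). With all deposited peaks, GM +dox replicate 1, the longest list, had 17 peaks at Notch1 (others 11 to 12) and 16 at Notch2 (others 10 to 11). Single peaks also stood out: the Notch1 upstream region was at a percentile of 17.1 in 1 GM no dox library and 0 in the others, and the Notch2 intron region 50.05 kb downstream was at 8.20 in 1 GM no dox library and 8.32 in 1 GM +dox library, with 0 in the others. The Sec16a start-site region had 45.8 in GM +dox replicate 4, against 39.4 to 40.4 in the others.

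DM +dox replicate 1, which entered no main comparison, had 31 peaks in the 9 windows. DM no dox replicate 1, whose whole list held only 1287 peaks, had none there.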

How the results depend on the processing

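The 3 named gene windows and 11 named region differences did not reverse in 238 of 242 alternative values, although their size moved with the lists. A difference of 0 counted as not reversed, as for Jag1 without dox when ranking by fold enrichment. Much of this agreement was set in advance. The regions were picked because their groups did not overlap, so leaving out a library cannot reverse them. Window size and nearest peaks do not enter the strength of a region, and limma without the block returns the same difference. The 3 windows were those with the lowest exact permutation p among the members. Of 214 adjusted p-values 1 was under 0.05, that of the Notch3 intron region without dox in limma with a replicate block (0.0260, and 0.110 in limma without it). The 4 reversals were Hes6 with dox at -0.0833 peaks and the Per2 start-site region for dox in DM at -9.35 percentiles when ranking by fold enrichment, Jag1 without dox at -0.333 peaks with the strongest 7355 peaks, and Notch3 with dox at 1.33 peaks with all deposited peaks. The cause was not tested.

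All-or-none member regions numbered 2 for dox in DM and 0 elsewhere in the lists of equal length. All deposited peaks gave 7 for dox in DM and 1 for differentiation with dox. The strongest 7355 peaks gave 1 in DM with against without dox, and 1 when DM no dox was set against GM no dox. Ranking by fold enrichment gave 1 for differentiation with dox, and windows of 10 kb 1 and all 16 libraries 0 for dox in DM. Within the numbers 1 and 2, with only 1 library in each DM group, there were 10 for dox in DM, and differentiation had 4 in vehicle-treated and 7 in dox-treated cells. Within 3 and 4 these were 4, 3 and 5, and dox in GM had 1. With 1 library against 1, any region with a peak in only 1 of them counts as all-or-none. With a replicate block, which uses only shared numbers, differentiation with dox had 1. Shares over all regions were computed only for the equal-length lists and all deposited peaks. The counts at the other settings are therefore not read as results about the members. The exact test of pairs could call nothing, since 3 pairs give no p under 0.25. Limma with the block, chosen after seeing the data, called 1 member, the Notch3 intron region without dox. In that comparison the same-numbered libraries correlated at 0.123, 0.0618 and 0.399 for numbers 2, 3 and 4. The numbers are therefore not shown to pair all of these libraries. Over all regions the block raised the limma calls from 4 to 98 for dox in DM, and between media from 149 to 520 without and from 151 to 566 with dox.

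Leaving out single libraries gave 2 to 4 all-or-none members for dox in DM, 0 to 2 for either differentiation comparison and 0 for dox in GM. DM no dox replicate 2 (2 members without it, the Notch3 intron region among them) and GM no dox replicate 2 (1) decided the count without dox. With dox it was DM +dox replicate 2 (2 without it) and GM +dox replicates 1 and 2 and DM +dox replicate 3 (1 each). DM +dox replicate 2 also set the count for dox in DM (4 without it). The share over all regions was not computed for these counts either.

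The difference in total peaks over the 9 windows also moved. With all deposited peaks, dox gave 22.75 in GM and 29.7 in DM, and differentiation with dox 4.83, whereas lists of equal length gave -1.25, -0.667 and -0.25. Ranking by fold enrichment gave -3.33 and windows of 10 kb 1.33 in the DM comparison of dox. With all 16 libraries it was 7.25 there, and DM no dox minus GM no dox was -6.75. The 16 include DM no dox replicate 1, whose whole list held only 1287 peaks.

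Groups of 3 and 4 libraries limit what these tests can call, and ranks within a list do not measure absolute accessibility.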
